A study of Mus musculus with 4 samples.

Results

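The genes described here belong to the glutathione, peroxiredoxin and thioredoxin systems of mouse E14 embryonic stem cells (ESCs). They were chosen by name: the symbols that start with Gst and a class letter (a, k, m, o, p, t or z), Gpx, Prdx, Txnrd or Txn, each followed by a digit, and the genes Gclc, Gclm, Gss and Gsr. This rule took 54 of the 55353 symbols counted. The RNA came from 2 libraries labelled Ssrp1 knockout, made with Cas9 and a guide RNA, set against 2 libraries of wild-type E14 cells, called control here. Ssrp1 encodes a subunit of FACT, a histone chaperone whose other subunit is Supt16. Cells of both genotypes, of the labelled strain 12910la, were grown in serum (15% FBS) with LIF on gelatin, with 0.1 mM β-mercaptoethanol, a thiol reductant, in the medium. The labels do not say how many knockout clones were used or whether the libraries of a genotype came from separate cultures, so p-values measure the spread between these libraries, which may be technical. The treatment text also mentions a Usp7 shRNA, a pSuper puro vector and puromycin for wild-type cells, and does not say whether the controls received them.

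Ssrp1 RNA does not check the genotype labels. It stood at 305 and 327 CPM (counts scaled to library size) in the libraries labelled knockout, against 282 and 305 CPM in the controls, and was not called (log2 fold change 0.11 ± 0.06 SE, adjusted p = 0.226, edgeR). Supt16 had 976 and 1052 CPM in the knockout-labelled libraries and 881 and 899 CPM in the controls, a rise of 0.19 ± 0.06 (adjusted p = 0.018, edgeR). The groups are therefore named by their labels throughout, and every direction given rests on those labels. Total counts ran from 22611434 to 25344190 per library. Gm26917 and Gm42418, which resemble ribosomal RNA, took 6.30% and 4.64% of the counts in the libraries labelled knockout and 9.72% and 10.3% in the controls.

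Some markers of cell states differed between the groups. Their counts are to be read beside the shares over all genes tested, 16.5% called higher and 17.2% called lower. Of 7 embryonic stem cell markers, 1 rose and 5 fell, and their summed level was 2878 and 2858 CPM in the libraries labelled knockout, against 3345 and 3428 CPM in the controls. All 4 tested markers of the 2-cell-like state, of 6 listed, rose, with summed levels of 37.1 and 43.3 CPM against 0.634 and 0.204 CPM in the controls. Of 13 primitive endoderm markers 10 were tested and 7 rose (180 and 170.1 CPM in the libraries labelled knockout against 131 and 122 CPM in the controls), while Afp and Ttr were at 0 in all libraries. Lama1, not called, held the largest part of these sums. It had 95.2 and 89.6 CPM in the libraries labelled knockout and 99.3 and 92.2 CPM in the controls. Trophoblast markers gave 2 rises among 4 tested of 8 (130.0 and 138 against 83.4 and 82.2 CPM in the controls), with Cdx2 and Elf5 at no more than 3 counts in any library. Tfap2c made most of the difference between these sums. It had 90.9 and 94.3 CPM in the libraries labelled knockout and 53.8 and 51.6 CPM in the controls. Neural markers gave 1 rise and 3 falls among 6 (88.6 and 92.7 against 159 and 166 CPM in the controls). Ncam1 made most of the difference between these sums, and Nes rose. Ncam1 had 14.5 and 17.4 CPM in the libraries labelled knockout and 82.1 and 86.7 CPM in the controls. Fibroblast and feeder cell markers gave 1 rise and 1 fall among 4 tested of 10 (33.5 and 36.9 against 38.8 and 40.1 CPM in the controls), with Dcn, Lum and Postn at 0. The part of these shifts in the results below was not tested, and in such bulk samples fewer cells of a type and less RNA per cell cannot be told apart.

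Glutathione is a thiol tripeptide that cells hold as their main soluble reductant. It is made from glutamate, cysteine and glycine, is spent by glutathione peroxidases on peroxides and by glutathione transferases on electrophiles, and is returned to its reduced form by glutathione reductase. Thioredoxins and peroxiredoxins form a parallel system, in which peroxiredoxins reduce peroxides, thioredoxins reduce peroxiredoxins, and thioredoxin reductases, which are selenoproteins, restore thioredoxin with NADPH. Many genes of both systems carry antioxidant response elements, the DNA sites bound by the transcription factor NRF2.

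Of the 54 genes, 41 passed the filter on low counts and were tested, and 10 were higher and 5 lower in the libraries labelled knockout. Among all 17482 genes tested, 16.5% were called higher and 17.2% lower, 33.6% in all, so that the 36.6% called among the members lay near the background. The counts by role and by list below are to be read beside these same shares, and no group of genes was tested as a whole. The median log2 fold change was -0.02 over the tested members and 0.00 over all genes tested, and member values ran from -0.88 for Gstt2 to 1.56 for Gstp2. In 30 of the 41 genes the CPM of the groups did not overlap, which held for 66.6% of all genes tested. Scaling by library size alone, without TMM (trimmed mean of M values), gave 12 members higher and 3 lower. The same scaling gave 3882 higher and 2215 lower among all genes tested. The CPM of all members summed to 3247 and 3243 in the libraries labelled knockout and to 2896 and 2964 in the controls. The peroxiredoxin gene Prdx1 alone held 29.1% and 27.2% of those sums in the libraries labelled knockout and 28.4% and 28.7% in the controls.

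**Figure D1:**
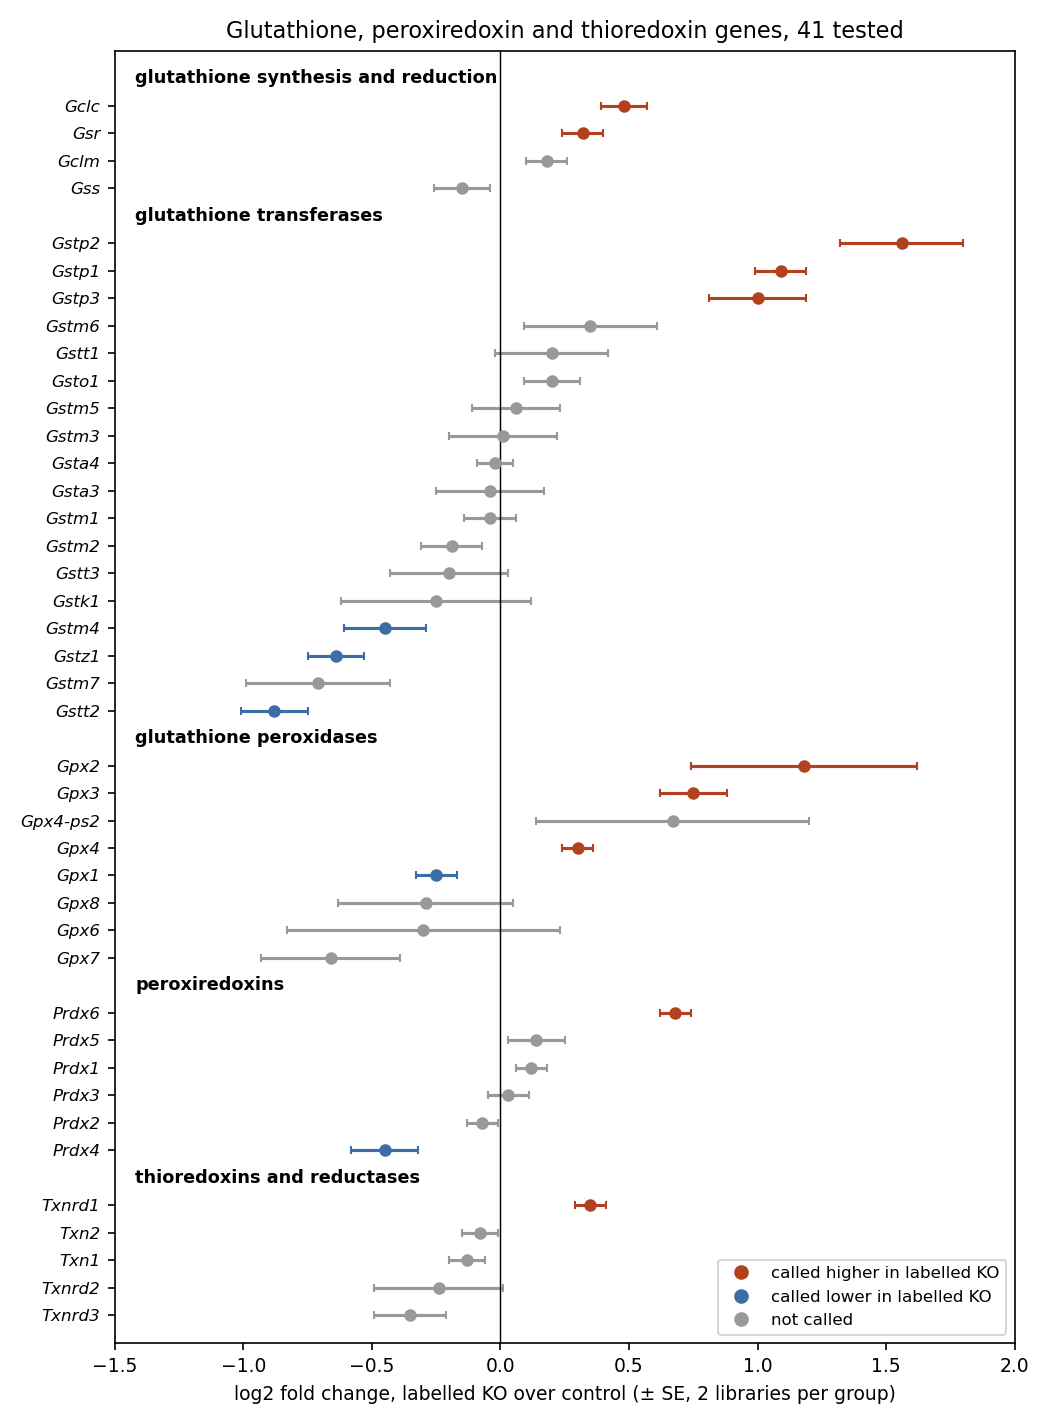
Log2 fold change (libraries labelled knockout over controls, horizontal axis) of the 41 tested genes, grouped by role; points are edgeR estimates and bars are ± SE from 2 libraries per group, coloured by call. The 3 Gstp genes, Gpx2 and Gpx3 lie farthest right and Gstt2 farthest left, and calls in both directions occur among transferases, peroxidases and peroxiredoxins.

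Of the 4 genes for making and recycling glutathione, 2 rose, the other 2 were not called, and the median was 0.25. Gclc, the catalytic subunit of glutamate-cysteine ligase, which carries out the rate-limiting step of synthesis, had 71.2 and 90.8 CPM in the libraries labelled knockout, against 58.7 and 57.8 CPM in the controls. It rose by 0.48 ± 0.09 on the log2 scale (adjusted p = 4.2e-04, edgeR), and both libraries labelled knockout lay above both controls, the second well above the first. Without the second knockout-labelled library the value was 0.29 (adjusted p = 0.0024, edgeR). Gclm, the regulatory subunit of the same ligase, had 58.2 and 56.1 CPM in the libraries labelled knockout and 49.0 and 52.3 CPM in the controls; the groups did not overlap, but the difference did not pass the test (0.18 ± 0.08, adjusted p = 0.095, edgeR).

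Gss, glutathione synthetase, which adds the glycine, had 20.9 and 18.5 CPM in the libraries labelled knockout and 21.8 CPM in each control, and was not called (-0.15 ± 0.11, adjusted p = 0.331, edgeR). Gsr, the reductase that regenerates glutathione, had 67.4 and 68.1 CPM in the libraries labelled knockout, against 53.3 and 55.2 CPM in the controls. It rose by 0.32 ± 0.08 (adjusted p = 0.0024, edgeR), a call lost without the first control (0.29, adjusted p = 0.060, edgeR). The summed level of the 4 genes was 218 and 234 CPM in the libraries labelled knockout and 183 and 187 CPM in the controls.

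Glutathione transferases join glutathione to electrophilic compounds. Of 23 such symbols 18 were tested; 3 rose, 3 fell, and the median was -0.03. The 3 that rose were the 3 members of the pi class, and summed transferase levels were 490.1 and 528 CPM in the libraries labelled knockout and 483 and 518 CPM in the controls.

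The pi class genes lie next to each other on the minus strand of chromosome 19 (mm10): Gstp1 at chr19:4035407-4037985, Gstp2 at chr19:4040285-4046023 and Gstp3 at chr19:4057477-4059569. The 250 bases before the start of each in RefSeq (GRCm38.p6, minus strand, 5′ to 3′) are shown because the 3 neighbours rose together; capitals mark the letters TGANNNNGC, a loose form of the antioxidant response element core, on either strand. GENCODE M21 places the outermost start of each gene upstream of the RefSeq start. That start lies inside the sequence shown for Gstp1 (4037985) and Gstp3 (4059569), and far upstream of it for Gstp2 (4046023). Distances given below are from the RefSeq starts and hold for those only.
Gstp1, chr19:4037913-4038162: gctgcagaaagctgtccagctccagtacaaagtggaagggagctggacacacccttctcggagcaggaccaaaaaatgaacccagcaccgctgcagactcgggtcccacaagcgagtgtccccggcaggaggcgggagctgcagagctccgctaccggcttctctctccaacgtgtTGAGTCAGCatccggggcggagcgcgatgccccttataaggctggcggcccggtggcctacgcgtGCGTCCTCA
Gstp2, chr19:4042222-4042471: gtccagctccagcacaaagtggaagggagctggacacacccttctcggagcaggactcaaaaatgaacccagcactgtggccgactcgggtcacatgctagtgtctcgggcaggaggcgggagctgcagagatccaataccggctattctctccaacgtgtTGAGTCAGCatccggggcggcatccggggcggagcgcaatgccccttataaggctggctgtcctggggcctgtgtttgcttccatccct
Gstp3, chr19:4059448-4059697: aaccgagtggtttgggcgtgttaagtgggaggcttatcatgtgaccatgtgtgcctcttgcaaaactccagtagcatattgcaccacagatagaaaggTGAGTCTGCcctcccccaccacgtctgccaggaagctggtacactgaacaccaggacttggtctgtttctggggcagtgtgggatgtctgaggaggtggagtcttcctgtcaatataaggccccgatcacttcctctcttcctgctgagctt
Gstp1 and Gstp2 hold the same 9 letters, TGAGTCAGC, 74 and 89 bases before their starts, and Gstp3 holds TGAGTCTGC 152 bases before its start. Gstp1 also holds TGAGGACGC on the other strand, 9 bases before its start. Further matches reach past the bases shown and are not marked. Their first bases lie at -7 in Gstp3 and at 30 in Gstp1, counted from the RefSeq start. In a global alignment the Gstp1 and Gstp2 sequences were identical at 207 of 265 columns (78.1%), with a shared run of 43 bases, while Gstp3 was 46.4% identical to Gstp1 and 44.8% to Gstp2. The loose letters stand in the windows of 45% of all genes, so a match is a description of these sequences and no more.

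Gstp1, the most abundant of the class, had 45.6 and 49.7 CPM in the libraries labelled knockout, against 21.4 and 23.5 CPM in the controls. The groups lay far apart and the gene rose by 1.09 ± 0.10 (adjusted p = 3.8e-08, edgeR). Gstp2 had 10.8 and 6.67 CPM in the libraries labelled knockout, against 2.40 and 3.47 CPM in the controls, a rise of 1.56 ± 0.24 (adjusted p = 4.0e-05, edgeR) in which the knockout-labelled libraries differed between themselves. Gstp3 had 7.35 and 6.84 CPM in the libraries labelled knockout, against 3.62 and 3.47 CPM in the controls, and rose by 1.00 ± 0.19 (adjusted p = 4.7e-04, edgeR).

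Gstp1 and Gstp2 are near-identical copies, so how reads were divided between them is uncertain: 33.7% of the 50-base words in the exons of Gstp1 occur also in Gstp2, and 49.1% of those of Gstp2 occur in Gstp1, while Gstp3 shares none. Their summed level was 56.4 CPM in each library labelled knockout, against 23.8 and 26.9 CPM in the controls. The sum rose by 1.15 ± 0.09 (adjusted p = 8.1e-09, edgeR). Within 50 kb of the cluster 7 other genes were tested: Cdk2ap2 rose by 0.54 ± 0.17 (adjusted p = 0.016, edgeR), Ndufv1 changed by -0.35 ± 0.07 (adjusted p = 9.6e-04, edgeR), and their median was 0.23.

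The mu class forms a cluster of 7 genes on chromosome 3 (chr3:107895821-108044894, mm10), and among them Gstm4 was called lower. It had 6.92 and 7.47 CPM in the libraries labelled knockout, against 10.5 and 9.22 CPM in the controls (-0.45 ± 0.16, adjusted p = 0.032, edgeR). That call was lost with DESeq2 (adjusted p = 0.119), with scaling by library size alone (-0.37, adjusted p = 0.080, edgeR), without the first knockout-labelled library (-0.40, adjusted p = 0.086, edgeR) and without the first control (-0.36, adjusted p = 0.214, edgeR).

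Gstm1, the most abundant of the class, had 39.3 and 48.7 CPM in the libraries labelled knockout and 43.6 and 47.0 CPM in the controls; the groups overlapped (-0.04 ± 0.10, adjusted p = 0.774, edgeR). Gstm2 had 17.1 and 15.4 CPM in the libraries labelled knockout and 18.5 and 18.4 CPM in the controls (-0.19 ± 0.12, adjusted p = 0.244, edgeR). Gstm7 had 2.27 and 3.02 CPM in the libraries labelled knockout and 3.17 and 5.43 CPM in the controls, which differed widely from each other (-0.71 ± 0.28, adjusted p = 0.055, edgeR). Gstm7 passed the threshold with the replicate number as a block (-0.68, adjusted p = 0.027, edgeR), with no filter on low counts (-0.71, adjusted p = 0.021, edgeR), without the second knockout-labelled library (-0.93, adjusted p = 0.010, edgeR) and without the first control (-1.04, adjusted p = 0.0027, edgeR). It was at -0.51 (adjusted p = 0.154, edgeR) without the first knockout-labelled library and at -0.26 (adjusted p = 0.638, edgeR) without the second control. Gstm3, Gstm5 and Gstm6 were not called, with values of 0.01 ± 0.21, 0.06 ± 0.17 and 0.35 ± 0.26. Gstm5 overlaps the antisense gene 4933431E20Rik, and how counting treated strand is not given in the labels. The 4 other tested genes within 50 kb of this cluster had a median of 0.18.

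The theta class on chromosome 10 (chr10:75774115-75837424, mm10) held the lowest value of all members, that of Gstt2, whose human counterpart acts on organic hydroperoxides and sulfate esters. Gstt2 had 9.49 and 9.03 CPM in the libraries labelled knockout, against 16.5 and 17.6 CPM in the controls, and was lower by a clear gap (-0.88 ± 0.13, adjusted p = 3.1e-05, edgeR). Its neighbours Gstt1 (0.20 ± 0.22, adjusted p = 0.509, edgeR) and Gstt3 (-0.20 ± 0.23, adjusted p = 0.552, edgeR) were not called. Among 3 other tested genes within 50 kb, Mif changed by -0.19 ± 0.07 (adjusted p = 0.040, edgeR).

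Gstz1 encodes maleylacetoacetate isomerase, an enzyme of tyrosine breakdown. It had 17.3 and 19.2 CPM in the libraries labelled knockout, against 29.6 and 27.4 CPM in the controls (-0.64 ± 0.11, adjusted p = 1.2e-04, edgeR). Gsta4, which acts on the lipid peroxidation product 4-hydroxynonenal, was the most abundant transferase by CPM, with 282 and 309 CPM in the libraries labelled knockout and 285 and 312 CPM in the controls. Each library of Gsta4 had a near match in the other group, and it was not called (-0.02 ± 0.07, adjusted p = 0.876, edgeR). Gsta3 (-0.04 ± 0.21), the omega class gene Gsto1 (0.20 ± 0.11) and the mitochondrial and peroxisomal kappa class gene Gstk1 (-0.25 ± 0.37) were not called either.

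Glutathione peroxidases are a family named for reducing peroxides with glutathione. Of 11 symbols 8 were tested; 3 rose and 1 fell, with a median of 0.03, and levels summed to 551 and 559 CPM in the libraries labelled knockout and to 484 and 474 CPM in the controls. Gpx4, the selenoenzyme that reduces lipid hydroperoxides in membranes and holds back ferroptosis, had 449.5 and 438 CPM in the libraries labelled knockout, against 366 and 355 CPM in the controls. It made up most of the family's level and rose by 0.30 ± 0.06 (adjusted p = 5.6e-04, edgeR). Of its 50-base exon words 34.7% recur in the pseudogene Gpx4-ps2, which was itself not called (0.67 ± 0.53, adjusted p = 0.357, edgeR), and the sum of both rose by 0.30 ± 0.06 (adjusted p = 5.5e-04, edgeR).

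Gpx3, the secreted plasma peroxidase, had 17.5 and 22.0 CPM in the libraries labelled knockout, against 11.5 and 12.1 CPM in the controls, and rose by 0.75 ± 0.13 (adjusted p = 2.0e-04, edgeR). Gpx2, the gastrointestinal form, was low, with 31 and 67 counts (1.32 and 2.81 CPM) in the libraries labelled knockout and 27 and 15 counts (1.22 and 0.612 CPM) in the controls. Its call (1.18 ± 0.44, adjusted p = 0.043, edgeR) was lost without the second knockout-labelled library (0.54, adjusted p = 0.522, edgeR), without the second control (0.75, adjusted p = 0.248, edgeR), with DESeq2 (adjusted p = 0.113) and with limma-voom (adjusted p = 0.061). Summed with the pseudogene Gpx2-ps1, Gpx2 gave 1.04 ± 0.40 (adjusted p = 0.050, edgeR).

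Gpx1, the widely expressed cytosolic form, went the other way, with 76.7 and 90.3 CPM in the libraries labelled knockout, against 98.9 and 99.2 CPM in the controls (-0.25 ± 0.08, adjusted p = 0.017, edgeR). The controls were nearly equal and the libraries labelled knockout were not. Its call was lost with library size alone (-0.16, adjusted p = 0.117, edgeR), with DESeq2 (adjusted p = 0.051), and without the first knockout-labelled library (-0.13, adjusted p = 0.143), the first control (-0.26, adjusted p = 0.080) or the second control (-0.25, adjusted p = 0.092) in edgeR. Gpx7, a peroxidase of the endoplasmic reticulum, had 2.74 and 2.14 CPM in the libraries labelled knockout and 3.26 and 4.41 CPM in the controls (-0.66 ± 0.27, adjusted p = 0.064, edgeR). It passed the threshold with the replicate block (-0.65, adjusted p = 0.049, edgeR), with no filter (-0.67, adjusted p = 0.046, edgeR), without the first knockout-labelled library (-0.84, adjusted p = 0.029, edgeR) and without the first control (-0.86, adjusted p = 0.030, edgeR). Gpx7 was at -0.49 (adjusted p = 0.228, edgeR) without the second knockout-labelled library and at -0.42 (adjusted p = 0.420, edgeR) without the second control. Gpx6 (-0.30 ± 0.53) and Gpx8 (-0.29 ± 0.34) were not called.

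Peroxiredoxins reduce hydrogen peroxide and organic peroxides through a reactive cysteine. Of 11 symbols 6 were tested, 1 rose, 1 fell and the median was 0.08. Their levels summed to 1476 and 1393 CPM in the libraries labelled knockout and 1291 and 1317 CPM in the controls. Prdx6, the 1-Cys form that takes its electrons from glutathione rather than thioredoxin, had 186 and 179 CPM in the libraries labelled knockout, against 112 and 116 CPM in the controls. The libraries of each group lay close together and the gene rose by 0.68 ± 0.06 (adjusted p = 1.1e-07, edgeR). Prdx4, the form of the secretory pathway, had 13.6 and 10.9 CPM in the libraries labelled knockout, against 16.7 CPM in each control (-0.45 ± 0.13, adjusted p = 0.013, edgeR). Without the second knockout-labelled library Prdx4 was at -0.30 (adjusted p = 0.110, edgeR).

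The other peroxiredoxins, which take electrons from thioredoxin, were not called. Prdx1, cytosolic, had 944 and 881 CPM in the libraries labelled knockout and 823 and 850.3 CPM in the controls; the groups did not overlap (0.12 ± 0.06, adjusted p = 0.112, edgeR). Without the second knockout-labelled library Prdx1 was called higher (0.17, adjusted p = 3.3e-04, edgeR). Prdx2, also cytosolic, had 261 and 255 CPM in the libraries labelled knockout and 273 and 267 CPM in the controls (-0.07 ± 0.06, adjusted p = 0.446, edgeR). The mitochondrial Prdx3 was at 0.03 ± 0.08 (adjusted p = 0.810, edgeR), and Prdx5 was at 0.14 ± 0.11 (adjusted p = 0.378, edgeR).

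Among the 5 thioredoxin and thioredoxin reductase genes, all tested, Txnrd1 rose, the other 4 were not called, and the median was -0.13. Txnrd1, the cytosolic reductase, had 331 and 358 CPM in the libraries labelled knockout, against 264 and 275 CPM in the controls (0.35 ± 0.06, adjusted p = 2.2e-04, edgeR). Both libraries labelled knockout were above both controls. Its substrate thioredoxin, Txn1, had 109.9 and 98.2 CPM in the libraries labelled knockout and 112 and 116 CPM in the controls and was not called (-0.13 ± 0.07, adjusted p = 0.159, edgeR), though the groups did not overlap. Without the first knockout-labelled library, Txn1 was called lower (-0.22, adjusted p = 0.0074, edgeR). The mitochondrial pair, Txn2 (-0.08 ± 0.07, adjusted p = 0.456, edgeR) and its reductase Txnrd2 (-0.24 ± 0.25, adjusted p = 0.493, edgeR), was not called. Txnrd3, thioredoxin glutathione reductase, best known from testis, had 9.44 and 8.52 CPM in the libraries labelled knockout and 11.2 and 11.7 CPM in the controls (-0.35 ± 0.14, adjusted p = 0.066, edgeR). Without the first knockout-labelled library it was called lower (-0.43, adjusted p = 0.044, edgeR).

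**Figure D2:**
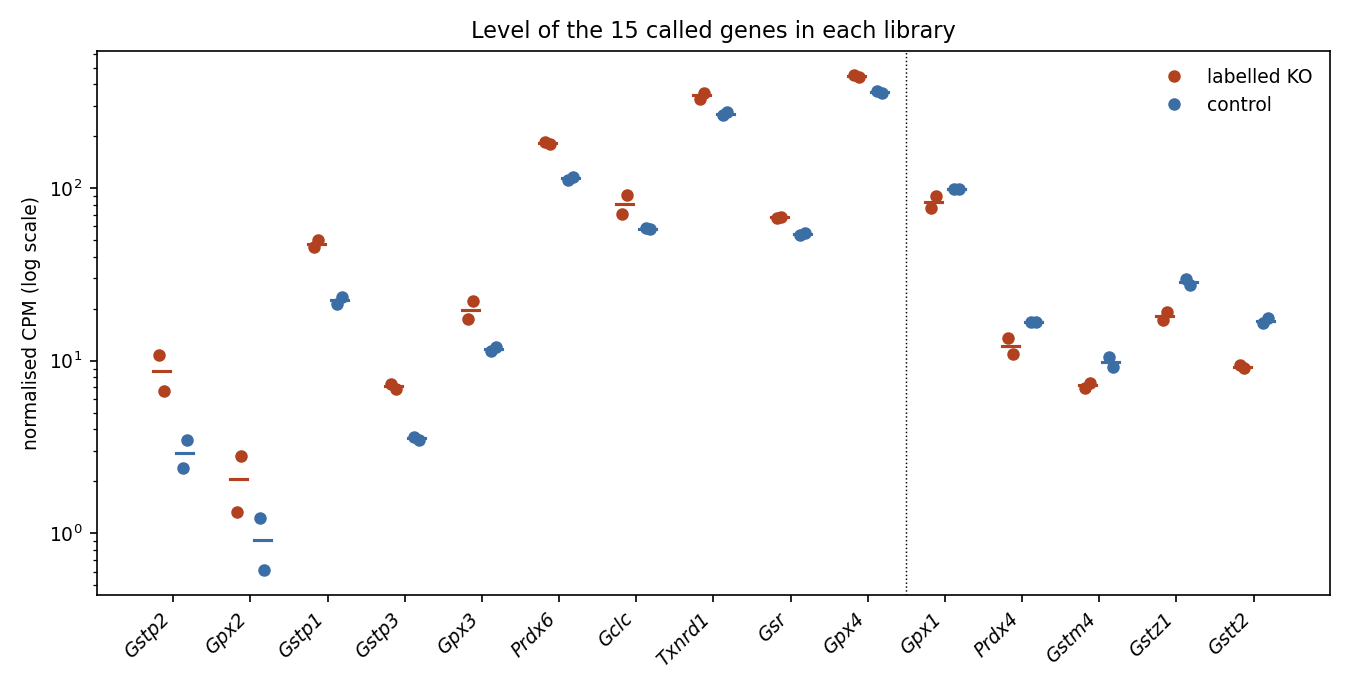
Normalised CPM (log axis) of the 15 called genes in each library, libraries labelled knockout in red and controls in blue, with bars at the group means; genes called higher stand left of the dotted line and genes called lower right of it. The 2 red points of Prdx6 (186 and 179 CPM) stand clear of the 2 blue ones (112 and 116 CPM), while for Gpx2 a red and a blue point nearly touch (1.32 and 1.22 CPM).

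The 13 members that were not tested had few or no reads. Prdx6b, Prdx6-ps2, Prdx2-ps2, Prdx1-ps, Gsta1, Gpx5 and Gpx4-ps1 were at 0 in all 4 libraries, where 3 counts, the limit that a count of 0 allows, correspond to 0.122 to 0.136 CPM. Gsta2 had 0 and 0 counts in the libraries labelled knockout and 0 and 2 in the controls, and Gstt4 had 0 and 5 in the libraries labelled knockout and 2 and 2 in the controls. Gsto2 had 4 and 4 counts in the libraries labelled knockout and 5 and 5 in the controls. The pseudogenes Prdx2-ps1, Gpx2-ps1 and Gstm2-ps1 had at most 17 counts in any library. Most of the words of Gsta1 (90.5%) recur in other genes, so its 0 depends on how such reads were counted.

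Levels can be compared between genes only per length. The length used here joins all annotated exons of a gene and is not that of the transcript expressed. The order therefore depends on the annotation too, which the SDs do not cover. In CPM per kb of exon, the first in order was Prdx1, with 299.8 ± 14.6 in the libraries labelled knockout and 275 ± 6.27 in the controls (SD, n = 2 each). Gpx4 followed in the libraries labelled knockout with 257 ± 4.58, against 209 ± 4.52 in the controls, where Gsta4 stood second: Gsta4 was at 233 ± 15.2 in the libraries labelled knockout and 236 ± 15.0 in the controls. Txn1 (99.0 ± 7.92 in the libraries labelled knockout and 109 ± 2.64 in the controls) and Prdx2 (84.6 ± 1.26 and, in the controls, 88.5 ± 1.35 CPM per kb) came next. Each of these 5 genes differed from its neighbour in the control order by more than the sum of their SDs.

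Prdx6 stood at 38.0 ± 0.921 CPM per kb in the libraries labelled knockout and 23.7 ± 0.536 in the controls, and Gstp1 at 30.8 ± 1.88 in the libraries labelled knockout and 14.5 ± 0.950 in the controls. In the controls Gstp1 could not be set apart from Txn2 (15.0 ± 0.236), nor Gstm1 (30.7 ± 1.60) from Prdx3 (32.2 ± 0.241). The order ended with Gpx2, at 0.642 ± 0.327 in the libraries labelled knockout and 0.285 ± 0.134 CPM per kb in the controls. Over the 40 tested members without a pseudogene symbol, 18 of the 39 neighbouring pairs in the control order differed by no more than the sum of their SDs.

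**Figure D3:**
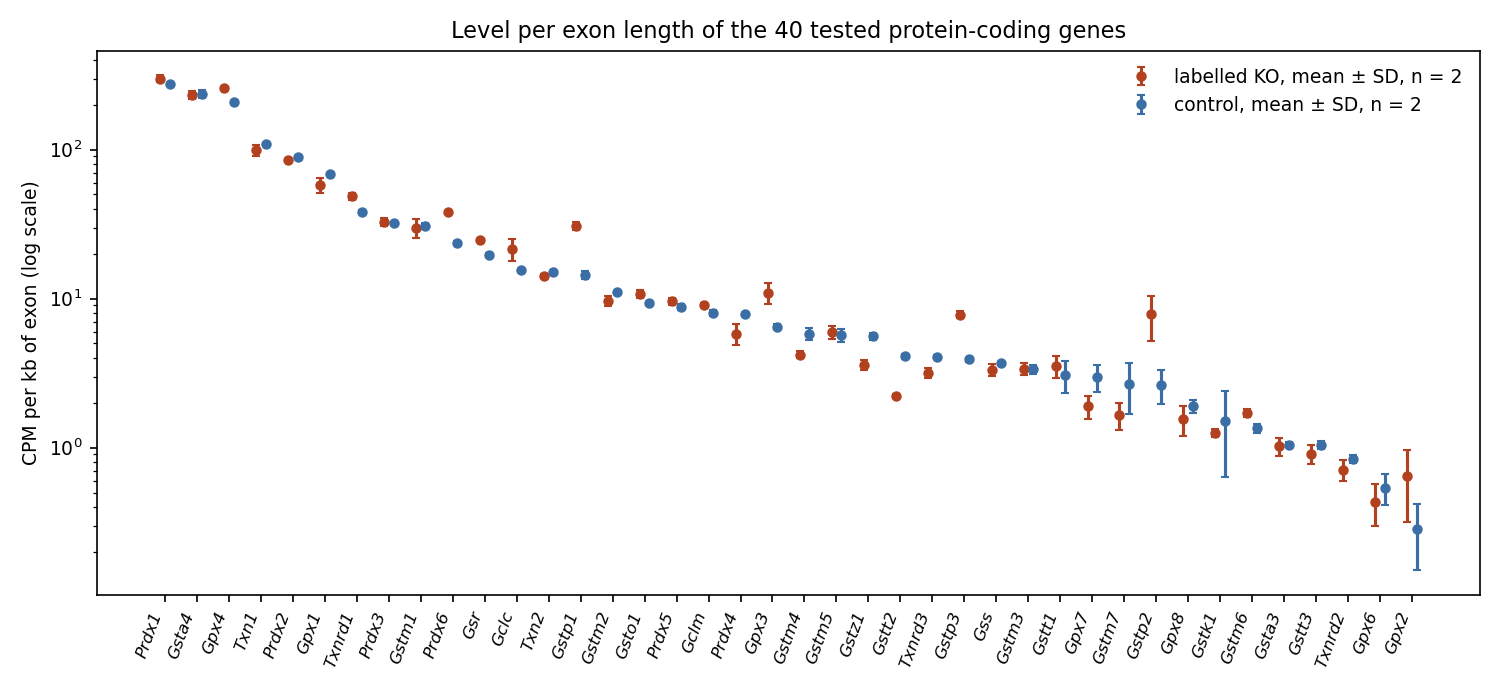
Level per exon length (CPM per kb, log axis) of the 40 tested members without a pseudogene symbol, as mean ± SD of 2 libraries labelled knockout (red) and 2 controls (blue), in the order of the control means. Prdx1, Gsta4 and Gpx4 lead, at 275, 236 and 209 CPM per kb in the controls, and the red points of Gstp1, Gstp2 and Gstp3 stand above their blue ones.

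The stricter core letters TGACNNNGC (both strands; each match is also one of TGANNNNGC) were sought in the window from 250 bases before to 50 bases after each RefSeq start. They were found for 6 of the 40 members with a window (15%) and for 14% of all genes with one; the looser letters were found for 21 of the 40 (52.5%), against 45% of all genes. Of the 6 genes with the stricter letters (Gsta3, Gstm5, Gstm7, Gclm, Prdx1 and Txnrd1), all tested, Txnrd1 was called higher and the others were not called. Of the 34 without them, 29 were tested, 6 were higher and 4 lower. Over all genes tested, 16.5% were called higher and 17.2% lower. The 14 members without a window, among them the called genes Gclc, Gsr, Prdx6 and Gstt2, were not searched. With the looser letters, 5 were higher and 2 lower of 19 tested, against 2 higher and 2 lower of 16 tested without them. The looser letters were chosen after seeing the data, and these 5 include Gstp1, Gstp2 and Gstp3. A link between letters and calls was not tested. The sites of the 3 most abundant by CPM are shown (GRCm38.p6, plus strand, which is the strand of each gene), with the match in capitals, written here as the reverse complement of the letters searched.
Txnrd1, chr10:82859099-82859137, 92 bases before a start: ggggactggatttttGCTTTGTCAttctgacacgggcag
Prdx1, chr4:116685451-116685489, 133 bases before the start: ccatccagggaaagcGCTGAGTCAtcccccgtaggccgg
Gclm, chr3:122245408-122245446, 134 bases before the start: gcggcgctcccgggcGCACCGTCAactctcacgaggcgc
Among these 3 genes only Txnrd1 passed the test, at 0.35, with Prdx1 at 0.12 and Gclm at 0.18.

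Around these genes, 125 others of the same pathways in 7 lists were examined. Of the 117 tested, 17 were higher and 30 lower in the libraries labelled knockout, with a median of -0.07. That is 40.2% called, against 33.6% of all genes tested. Without TMM the split was 31 higher and 22 lower, and that of all genes tested was 3882 higher and 2215 lower. Among 11 regulators of NRF2 signalling, 1 rose and 3 fell, with a median of 0.04. Bach2, a repressor related to BACH1, which competes with NRF2 for its sites, had 2.86 and 3.06 CPM in the libraries labelled knockout, against 8.83 and 7.38 CPM in the controls (-1.45 ± 0.20, adjusted p = 1.3e-05, edgeR). Mafk, a small MAF partner of NRF2, rose by 0.62 ± 0.17 (adjusted p = 0.0068, edgeR). Nfe2l1, a relative of NRF2, was lower (-0.24 ± 0.06, adjusted p = 0.0056, edgeR), a call lost with library size alone (adjusted p = 0.057, edgeR), without the first control (adjusted p = 0.089, edgeR) and without the second (adjusted p = 0.060, edgeR). Nfe2l2, which encodes NRF2 itself (0.18 ± 0.08, adjusted p = 0.104, edgeR), and its inhibitor Keap1 (-0.13 ± 0.14, adjusted p = 0.517, edgeR), both named after their values were seen, were not called.

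Of 20 NRF2 target genes outside the glutathione and thioredoxin set, 18 were tested, 3 rose and 6 fell, with a median of -0.17. Hmox1, heme oxygenase, had 94.0 and 112 CPM in the libraries labelled knockout, against 68.1 and 65.3 CPM in the controls (0.63 ± 0.08, adjusted p = 5.3e-06, edgeR). Pgd, of the pentose phosphate pathway that supplies NADPH, rose by 0.39 ± 0.06 (adjusted p = 1.1e-04, edgeR). Ftl1, the ferritin light chain, had 41.4 and 36.1 CPM in the libraries labelled knockout, against 68.5 and 66.3 CPM in the controls (-0.80 ± 0.08, adjusted p = 4.6e-07, edgeR). Known targets thus lay on both sides of the control level.

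Among 18 genes of cysteine supply and glutathione turnover, 15 were tested, 2 rose and 6 fell, with a median of -0.23. Chac1, which breaks glutathione down inside the cell, had 1.32 and 1.93 CPM in the libraries labelled knockout, against 19.4 and 13.7 CPM in the controls, the largest difference among the tested genes of these lists (-3.34 ± 0.22, adjusted p = 5.2e-10, edgeR). The aminopeptidase gene Lap3 was lower (-0.41 ± 0.06, adjusted p = 3.5e-05, edgeR) and the dipeptidase gene Cndp2 rose by 0.41 ± 0.07 (adjusted p = 1.8e-04, edgeR). Of 14 tested glutaredoxin, glyoxalase and microsomal transferase genes, from 16 listed, 2 rose and 1 fell (median -0.03). The glutaredoxins Glrx (0.69 ± 0.16, adjusted p = 0.0024, edgeR) and Glrx3 (0.31 ± 0.06, adjusted p = 6.1e-04, edgeR) were higher, and Clic1, a chloride channel protein of the transferase fold, was lower (-0.51 ± 0.09, adjusted p = 1.1e-04, edgeR).

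All 26 thioredoxin partner and thiol oxidoreductase genes were tested; 6 rose and 5 fell, with a median of 0.11. Txnip, which binds thioredoxin and inhibits it, had 433 and 399.8 CPM in the libraries labelled knockout, against 1395 and 1341 CPM in the controls (-1.72 ± 0.06, adjusted p = 4.7e-14, edgeR). Both libraries labelled knockout lay far below both controls. The protein disulfide isomerases Pdia3 (0.57 ± 0.06, adjusted p = 6.5e-07, edgeR) and Pdia6 (0.43 ± 0.06, adjusted p = 3.0e-05, edgeR) were higher.

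Of 12 genes of superoxide and hydrogen peroxide handling 11 were tested, 1 rose and 4 fell (median 0.02). Nnt, the mitochondrial transhydrogenase that makes NADPH, had 29.1 and 29.7 CPM in the libraries labelled knockout, against 56.3 and 52.3 CPM in the controls (-0.88 ± 0.09, adjusted p = 1.7e-07, edgeR). Ccs, the copper chaperone of superoxide dismutase (-0.54 ± 0.13, adjusted p = 0.0032, edgeR), and Cyba, an NADPH oxidase subunit (-0.66 ± 0.16, adjusted p = 0.0035, edgeR), were lower. Of 22 genes for selenoprotein synthesis and other selenoproteins, all tested, 2 rose and 5 fell (median -0.10). Lrp8, a receptor for the selenium carrier selenoprotein P, had 9.49 and 9.74 CPM in the libraries labelled knockout, against 22.0 and 23.9 CPM in the controls (-1.25 ± 0.12, adjusted p = 1.8e-07, edgeR). Sepsecs, which makes selenocysteyl-tRNA, was lower (-0.54 ± 0.10, adjusted p = 2.3e-04, edgeR), and Selenoi rose by 0.41 ± 0.07 (adjusted p = 1.4e-04, edgeR).

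**Figure D4:**
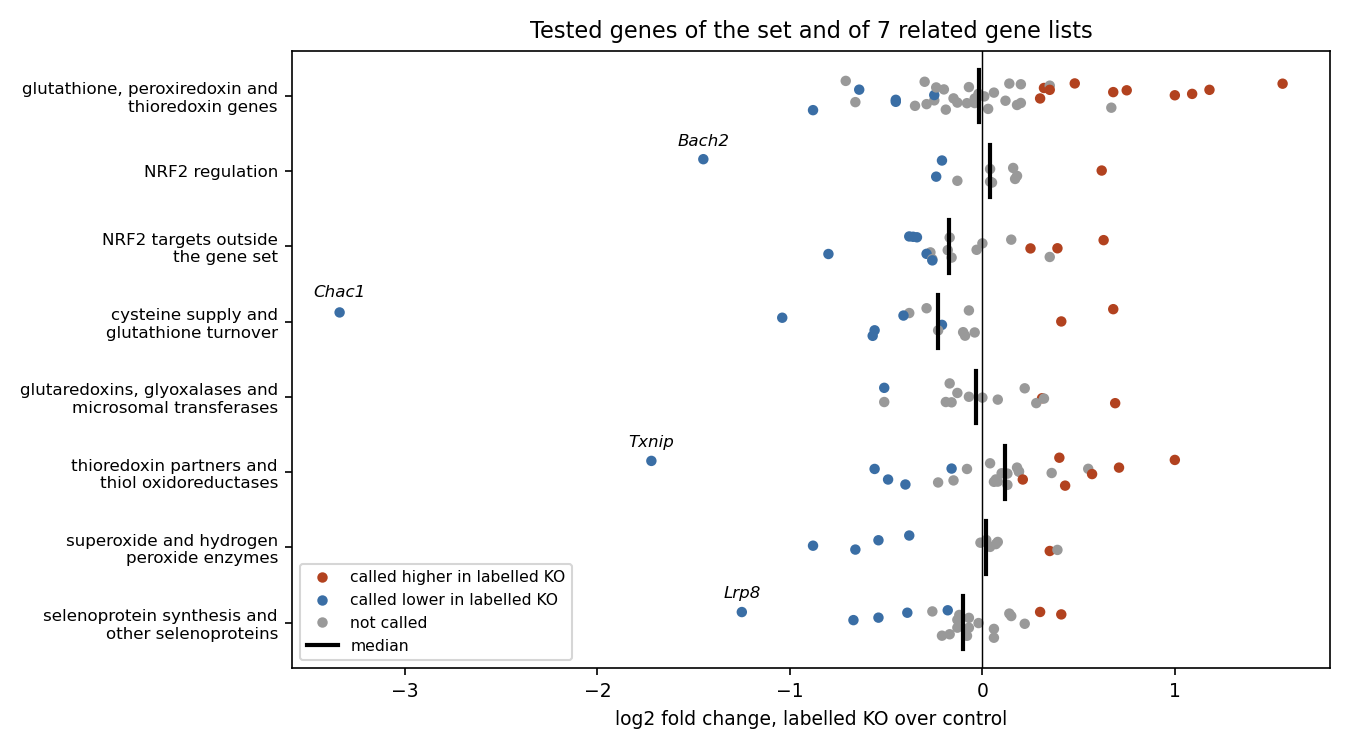
Log2 fold change (libraries labelled knockout over controls, horizontal axis) of each tested member (top row) and of the tested genes of 7 related lists, as points coloured by call, with a bar at each median. All 8 medians lie between -0.23 and 0.11, and Chac1 (-3.34), Txnip (-1.72), Bach2 (-1.45) and Lrp8 (-1.25) stand farthest left.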

How the data were processed

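Total RNA was depleted of ribosomal RNA, copied with random primers and sequenced from both ends, per the labels' protocols. The submitters' processing notes name the genome build mm10 and the tools cutadapt, HISAT2 and featureCounts. Not given in the sources used here are tool versions, the annotation, whether counting used strand, and what became of multi-mapped reads. The authors deposited 1 table of raw counts per gene symbol. Columns carry OK where titles carry KO and were matched by gene and number; columns mapped to no sample numbered 0.

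In R 4.3.3 with edgeR 4.0.16, filterByExpr (minimum count 10, minimum total 15) left 17482 genes. These were scaled by TMM and tested by edgeR's quasi-likelihood method (F test, 2-sided, no covariate, prior count 0.125, 2 residual degrees of freedom, Benjamini-Hochberg over all genes tested, threshold 0.05). In that method the variance of each gene is drawn toward a trend over all genes tested, so p-values do not rest on the gene's own spread alone. CPM are normalised by TMM, and the SE is the size of the log2 fold change over the root of F. The test was also run on counts simulated with the dispersions of these data. It recovered 27 of 50 genes changed 1.5-fold, 34 of 50 changed 2-fold, 42 of 50 changed 4-fold and 49 of 50 changed 8-fold. Calls among the 17282 unchanged genes numbered 7. A gene that was not called may therefore still differ. Only a small part of the genes was changed in the simulation, against 33.6% called in these data. The adjustment of p-values depends on that share, so the recovered numbers need not hold for these data. The chi-square statistic per degree of freedom was 11.5 between the libraries labelled knockout and 3.37 between the controls (genes with at least 20 counts in the pair). It was computed on counts without TMM, with Gm26917 and Gm42418 included. Both values were above 1, the value for counting error alone, so each pair was taken as 2 libraries. They do not show whether the libraries of a pair came from separate cultures. Limits for a count of 0 cover counting error only.

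Positions and exon lengths come from GENCODE M21, in which 50 of the 54 members matched by name; Ero1a was found under its older symbol Ero1l. Promoter sequences come from RefSeq (GRCm38.p6), where 40 members matched. Reads of genes that overlap or have antisense partners cannot be told apart if strand was not used. The members, lists and tests were chosen with earlier results of these data known. Every tested member is named, with the 3 list genes of smallest adjusted p past the threshold from each list. Alternatives were other scalings, other filters, DESeq2 1.42.0, limma-voom (limma 3.58.1), a replicate block, each library left out, and summed copies.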

Additional observations from a re-analysis of the deposited data

How the results depend on the processing

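Each tested member had 11 or 12 alternatives, since the filter at 5 CPM left out the members of low level. Under all that gave a value, 8 of the 10 members called higher and 2 of the 5 called lower kept direction and call; the exceptions (Gsr, Gpx2, Gpx1, Gstm4 and Prdx4) stand in the report with their values. Of the 26 not called, 10 turned direction under some alternative and 6 passed the threshold under some (Gclm, Prdx1, Gstm7, Gpx7, Txn1 and Txnrd3). The cause of these changes was not tested.

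Scaling by library size alone moved the median of all genes by 0.09 on the log2 scale and gave 3882 higher and 2215 lower genes, against 2877 and 3000 with TMM. It gave 12 members higher and 3 lower, 31 listed pathway genes higher, a member median of 0.07, which turned direction, and a value of 0.19 for Ssrp1 (adjusted p = 0.031, edgeR). Under it Gsta3 (0.04), Gstm1 (0.04), Prdx2 (0.02), Gsta4 (0.07) and Txn2 (0.00) turned direction. It brought Gclm (0.26, adjusted p = 0.015, edgeR) and Prdx1 (0.21, adjusted p = 0.010, edgeR) past the threshold. Keeping genes that reached 5 CPM in 2 libraries gave a member median of 0.08 and 0.00 for Gsta4. DESeq2 called 3 members lower. The looser motif letters and the sums of near-identical copies were chosen after seeing the data.

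With 1 library left out, the member median lay between -0.05 and 0.02, Ssrp1 between 0.04 and 0.16, and genes called higher between 1915 and 2995. Ranges that crossed 0 were those of Gsta3 (-0.20 to 0.10), Gstm3 (-0.08 to 0.10), Gstm1 (-0.21 to 0.10), Gsta4 (-0.09 to 0.05), Prdx3 (-0.03 to 0.09), Gstm5 (-0.06 to 0.16), Gstk1 (-0.76 to 0.49) and Gstt1 (-0.02 to 0.47). In these fits the lone library is assumed to vary like the other group. Same-numbered libraries showed no shared deviation from their group means (correlation 0.00994 over 14854 genes). With 2 libraries per group this cannot show whether they were handled together. A fit with the replicate block gave 3072 genes higher and 3216 lower, and 10 members higher and 7 lower. With 2 libraries per group, precision is limited most for members of low count such as Gpx2 and Gstk1.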
